A study of Sus scrofa domesticus with 4 samples.

Results

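The slow muscle and cardiac sarcomere genes TNNC1, TNNT1, TNNI3 and MYH7 were measured in porcine anterior pituitary cells cultured in the presence or absence of the adipose tissue hormone adiponectin. The 4 genes, of 2459 named genes on the array, were represented by 20 of its 43603 probes, chosen by the RefSeq accession given for each probe: 1 probe for TNNC1, 4 for TNNT1, 7 for TNNI3 and 8 for MYH7. The genes were proposed with the treated over control ratios of these arrays known. Those ratios are therefore given as a description with no test, and the signal over background, the dye term and the level on each array are described beside them.

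The cells came from anterior pituitary lobes of 4 mature gilts (Large White x Polish Landrace, 7 to 8 months old), taken on days 10 to 12 of the oestrous cycle in the mid-luteal phase, per the labels' protocols. Another label field words these days as a period of pregnancy. The labels thus differ on the reproductive state, and the protocol was followed here. Dispersed cells attached for 48 h in medium with serum. Both groups were then incubated for 24 h in serum-free medium containing bacitracin, the treated group with recombinant human adiponectin at 10 µg/ml and the control group without it. Each of 4 two-colour arrays received both RNAs, with treated RNA in Cy5 on arrays 1 and 3 and in Cy3 on arrays 2 and 4, as the channel labels state. No label ties an array to a gilt, so the spread over arrays is that between these 4 hybridisations.

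The sarcomere is the contractile unit of striated muscle, in which myosin heads pull on actin filaments. The troponin complex sits on the thin filament with tropomyosin and makes contraction depend on calcium. In it troponin C binds calcium, troponin I holds the filament inhibited at rest, and troponin T ties the complex to tropomyosin. TNNC1 encodes the troponin C of slow skeletal and cardiac muscle, TNNT1 the troponin T of slow skeletal muscle, TNNI3 the troponin I of cardiac muscle, and MYH7 the slow, beta-cardiac myosin heavy chain. TNNT1 and TNNI3 are neighbours on 1 chromosome in the Sscrofa11.1 annotation, with 0 genes between them.

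Most of the 20 probes lay clearly above background. The signal is the median pixel intensity of a spot, and it was divided by the median of the local background around that spot. The scanner software also calls each channel well above background or not. In both channels of all 4 arrays, 15 of the 20 probes were called well above background. Of the 20, 17 were tested, which required that call in the treated or the control channel on at least 3 arrays and a value on at least 3 arrays. Each probe had 1 spot per array. These signals are not normalized, so the channels of 1 array also differ by dye.

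TNNT1 had the widest margin over background, and each of its 4 probes was well above background in both channels on all 4 arrays. Its brightest probe, A_72_P232362, had a signal over local background of 113, 247, 224 and 229 in control cells on arrays 1 to 4. In treated cells the values of this probe were 167, 195, 360 and 292. Across its 4 probes, both channels and all arrays the ratio of signal to background ran from 15.2 to 360.4. TNNI3 was likewise well above background with 7 of 7 probes, and its values ran from 10.3 to 159. Its brightest probe, A_72_P731413, had 38.0, 75.0, 76.1 and 93.6 in control cells and 47.1, 46.2, 159 and 120 in treated cells. Control cells were lowest on array 1, and treated cells were low on arrays 1 and 2.

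The single probe of TNNC1, A_72_P406658, was dim on arrays 1 and 2. Its signal over background was 3.25, 3.59, 9.43 and 6.16 in control cells and 2.90, 3.03, 13.9 and 10.74 in treated cells. The control channel was not called well above background on array 1, so 3 of 4 arrays held a control signal above that limit, against 4 of 4 for the treated signal. The 8 probes of MYH7 spread widely. The brightest, A_72_P573064, had 7.29, 6.42, 25.4 and 16.7 in control cells and 9.98, 9.35, 34.8 and 23.0 in treated cells, again low on arrays 1 and 2. For A_72_P223897 the values ran from 4.94 to 23.5, for A_72_P325943 from 3.85 to 8.81, for A_72_P574180 from 3.55 to 6.81 and for A_72_P614843 from 1.59 to 5.10.

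The remaining 3 probes of MYH7 were not tested. A_72_P529063 was well above background in control cells on 1 array and in treated cells on 0, with signals of 1.35 to 2.62 times background. A_72_P570244 was well above background on 2 arrays in each channel. A_72_P529715 was well above background in treated cells on 3 arrays and in control cells on 0, and it was left out on 2 arrays for an uneven local background. On the other 2 arrays its treated signal was 1.13-fold the control signal. The control signal was not called well above background there, so this ratio is poorly measured. Treated RNA was in Cy5 on both of these arrays, so treatment and dye cannot be told apart for this probe.

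**Figure D1:**
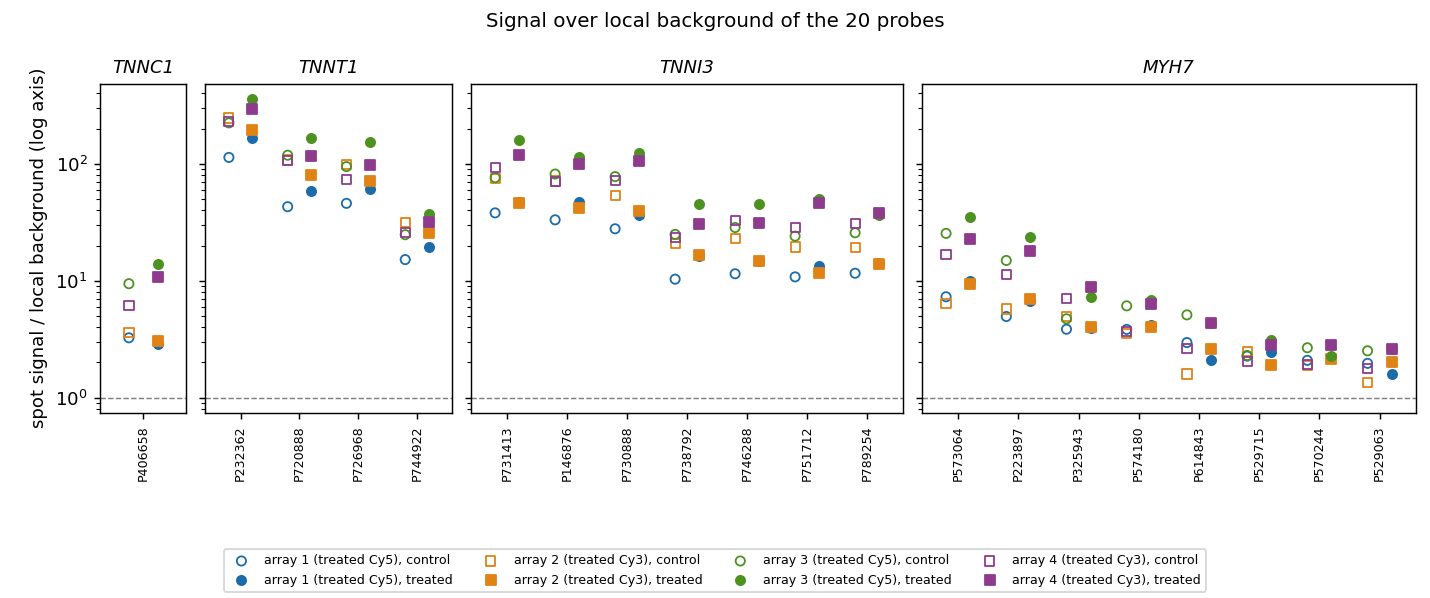
Spot signal over local background (log axis) of the 20 probes, ordered by brightness within each gene, with open symbols for control and filled symbols for treated cells. The probes of TNNT1 and TNNI3 lie at 10.3 or more on each array, while the dimmest probe of MYH7 reaches 2.62 at most.

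The treated over control ratios came next. Values are log2 ratios after background correction and loess normalization within arrays, and the fitted ratio comes from a model with a treatment term and a dye term. Ratios of dim probes are drawn towards 0 by the offset of 50 added to each signal. By the channel labels, all 17 tested probes of the 4 genes had a fitted ratio above 0, from 0.06 to 0.35 with a median of 0.17. Over all 25912 tested probes, 50.7% were above 0 and the median was 0.0012. This direction depends on the channel labels, and the authors' series matrix is turned to treated over control in the same way. The labelling protocol is worded as if Cy5 always held treated RNA, and by that reading 6 of the 17 probes were above 0 and 11 below.

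TNNC1 had log2 ratios of 0.23, 0.18, 0.31 and 0.05 on arrays 1 to 4, all above 0. Its fitted ratio was 0.19 (1.14-fold, 95% interval 0.04 to 0.34). The size differed between ways of processing. The log ratio of the scanner software gave 2.55-fold, 1.58-fold, 1.20-fold and 1.04-fold on arrays 1 to 4, with the highest values on the arrays where the probe was dimmest, and the fitted log2 ratio was 0.58. The authors' series matrix gave the same 0.58. The scanner software differs in both background and dye normalization, and which of them moved the value was not tested. With the background step alone changed, the ratio was 0.30 (normexp without an offset) and 0.28 (no subtraction). With spots of uneven local background kept, its value on array 2 went from 0.18 to 0.0075. Under this setting the fitted background mean of array 2, which applies to all its spots, moved far below 0. Those values are given below for MYH7.

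TNNT1 was the gene whose probes lay closest together. The brightest probe had 0.08, 0.27, 0.23 and 0.18 on arrays 1 to 4 and a fitted ratio of 0.19 (1.14-fold, 0.04 to 0.34). The fitted ratios of the 4 probes ran from 0.15 to 0.19. Array 1 was the lowest for each of the 4 probes, and 2 of them were below 0 there, at -0.14 for A_72_P720888 and -0.06 for A_72_P744922. On arrays 2, 3 and 4 all 4 probes were above 0.

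TNNI3 had fitted ratios of 0.14 to 0.23 over its 7 probes. The brightest had 0.01, 0.06, 0.31 and 0.19 on arrays 1 to 4, with a fitted ratio of 0.14 (1.11-fold) and an interval that held 0 (-0.02 to 0.31). With spots of uneven local background kept, its value on array 2 turned from 0.06 to -0.04, under the same shift of that array's fitted background as for TNNC1. The probes differed on single arrays: 4 of 7 were above 0 on array 1, 6 on array 2, 6 on array 3 and 7 on array 4. A_72_P738792 had the highest fitted ratio at 0.23 (0.07 to 0.39), with 0.18, 0.16, 0.45 and 0.15 on the single arrays. For 2 of the 7 probes the interval lay above 0.

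MYH7 had the highest single-array ratios and the widest spread. Its brightest probe, A_72_P573064, had -0.03, 1.02, 0.10 and 0.32 on arrays 1 to 4. The fitted ratio was 0.35 (1.28-fold, 0.11 to 0.60). A_72_P223897 followed the same course with -0.01, 0.90, 0.03 and 0.39 and a fitted ratio of 0.33. Array 2 was thus far above the other arrays for both probes, and by the scanner software's log ratio they were at 2.48-fold and 3.02-fold on that array. All 5 tested probes were above 0 on array 2, with a mean of 0.60, against means of -0.06, -0.03 and 0.23 on arrays 1, 3 and 4. The fitted ratio was 0.06 for A_72_P325943, 0.13 for A_72_P574180 and 0.06 for A_72_P614843, each with an interval that held 0. The last of these was well above background on 2 arrays in treated and 3 in control cells, so its ratio is poorly measured.

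The value for MYH7 rested on array 2. Without array 2 the fitted ratio of the brightest probe was 0.18, and without array 4 it was 0.53. In the fit without array 4, A_72_P573064 and A_72_P223897 had an adjusted p under 0.05 by limma, in a fit that left 1 residual degree of freedom. They were among 832 of 25157 tested probes called in that fit. The brightest probes of all 4 genes had intervals of equal width in that fit. The spread was thus one shared over probes, not that of these 2 probes. With spots of uneven local background kept, the ratio was 0.12 and its interval held 0 (-0.03 to 0.26). No flagged spot was of this probe, but the setting changed the spots that entered the normexp fit. It let in the spots of uneven background and also those flagged as outliers (29 to 45 per array). On array 2 the fitted background mean then went from -7.56 to -1269.6 in Cy5 and from 9.99 to -1215.7 in Cy3. The probe's ratio on that array went from 1.02 to 0.11. Which flagged spots moved the fit was not tested. The other 3 arrays moved by less than that in every channel, to -32.8 at the lowest. The mean over its 5 tested probes was 0.19.

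**Figure D2:**
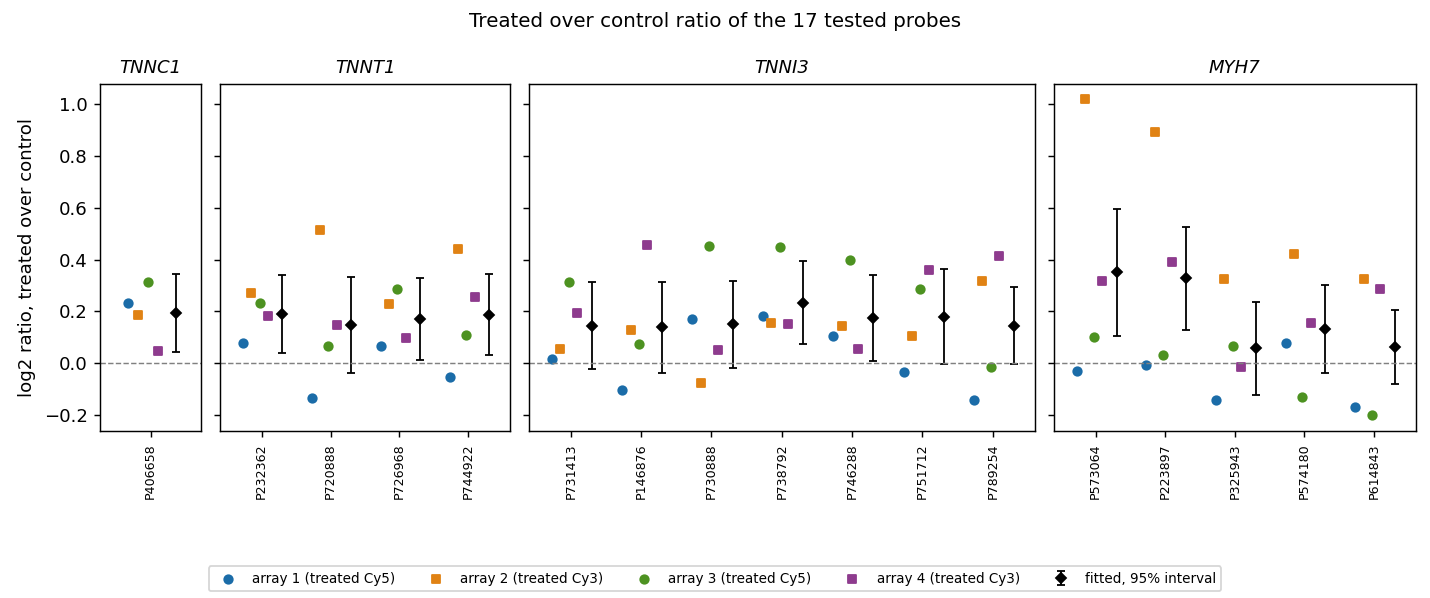
Log2 ratio of treated over control cells on each array for the 17 tested probes, with circles for treated RNA in Cy5, squares for treated RNA in Cy3, and diamonds for the fitted ratio with its 95% interval. The probes of MYH7 lie highest on array 2, reaching 1.02, whereas the single-array values of TNNC1 lie between 0.05 and 0.31.

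No member probe passed the test across all probes. With limma, 0 of 25912 probes (0%) had an adjusted p under 0.05. Without adjustment 717 probes (2.77%) had a p under 0.05, and 270 of them (1.04%) had higher values in treated cells. Among the 17 member probes 8 had an unadjusted p under 0.05, and all 8 had higher values in treated cells. Since the genes were proposed with this contrast in view, nothing is read from that count. The p-values measure the spread between these hybridisations, which may be technical in part.

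The dye term, the mean log2 ratio of Cy5 over Cy3 across the arrays, is separate from the treatment term because the dyes were swapped. It was below 0 for 5 of 5 tested probes of MYH7, from -0.32 to -0.10. It ran from -0.18 to 0.01 for TNNT1 and from -0.22 to 0.16 for TNNI3, and it was 0.08 for TNNC1. Over all tested probes its SD was 0.17, and 49.0% lay below 0. For the brightest probe of MYH7 the mean ratio of treated over control was 0.03 on the arrays with treated RNA in Cy5 and 0.67 on those with treated RNA in Cy3. By the wording of the labelling protocol its ratio became -0.32. The brightest probes of the other genes were then at 0.079 for TNNC1, -0.035 for TNNT1 and 0.02 for TNNI3.

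**Figure D3:**
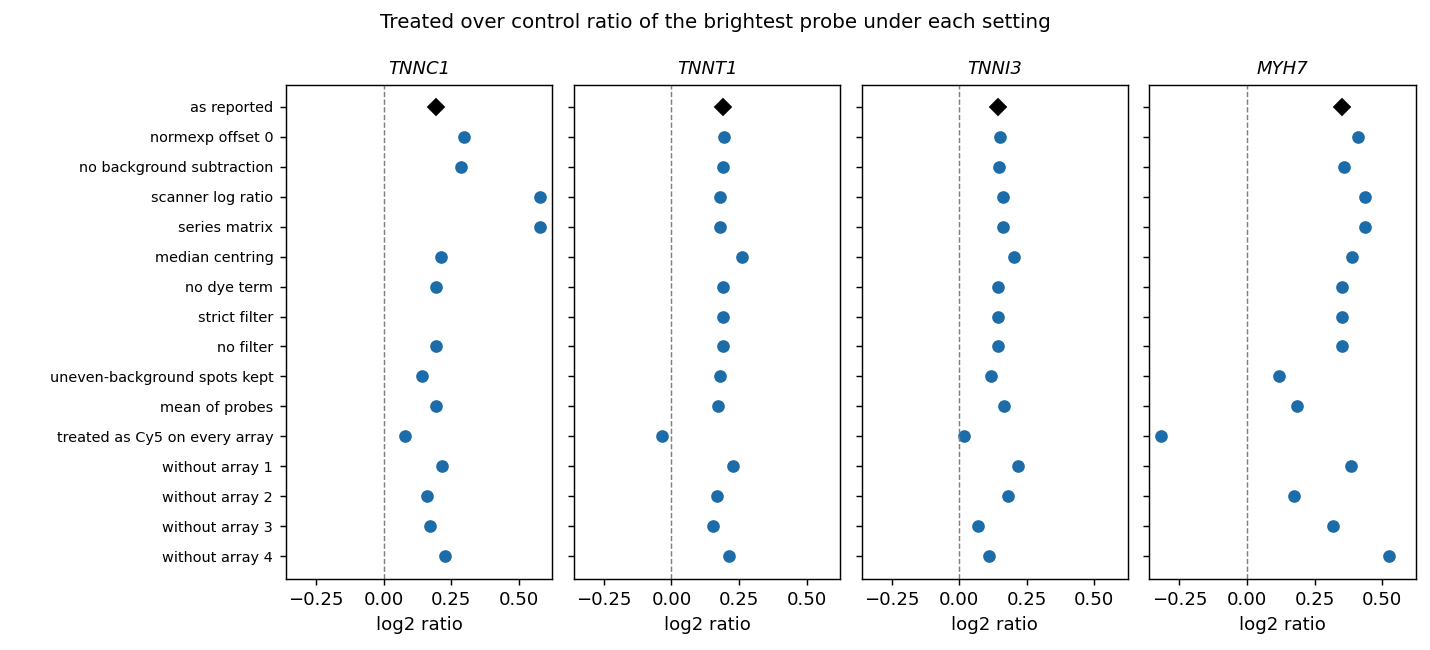
Log2 ratio of treated over control cells of the brightest probe of each gene under each processing setting (points) and as reported (diamonds). With the channel labels followed, each point lies above 0; TNNC1 reaches 0.58 with the scanner software's log ratio, and MYH7 lies at -0.32 where Cy5 is read as treated throughout.

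The level of the 4 genes differed more between arrays than between treated and control cells. Levels here are log2 intensities averaged over both channels, after setting the intensity distributions of the arrays equal. TNNC1 had levels of 6.74, 6.98, 8.40 and 7.89 on arrays 1 to 4. Its range was 3.15-fold with the offset of 50 and 5.12-fold without an offset, and the size is uncertain because the control channel was not well above background on array 1, without which it was 2.67-fold. The brightest probe of MYH7 had 8.25, 8.26, 9.83 and 9.46, a 2.99-fold range. The brightest probe of TNNI3 had 10.48, 10.87, 11.65 and 11.66 (2.27-fold), and that of TNNT1 had 12.31, 12.98, 13.34 and 13.10 (2.03-fold). Each of the 4 genes was thus lowest on array 1, for MYH7 level with array 2, and higher on arrays 3 and 4 than on arrays 1 and 2. The step from array 2 to the lower of arrays 3 and 4 was small for TNNT1, at 0.13 on the log2 scale, and 0.77 or more for the other genes.

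Most of the other probes followed this order of arrays. Of the 17 tested probes 14 were higher on both of arrays 3 and 4 than on both of arrays 1 and 2, against 22.4% of all tested probes measured on 4 arrays. The 3 exceptions were the dimmer probes of TNNT1. In control cells alone 14 of the 17 probes had this order, and in treated cells alone 13 had it. The range over arrays exceeded the 95th percentile of all tested probes for 12 of 17 member probes, among them 7 of 7 of TNNI3. Probes of the same gene read the same RNA on the same 4 arrays. The counts out of 17 are therefore not counts of separate measurements. The median range of all tested probes was 1.27-fold, and the 95th percentile was 1.92-fold. The range of the brightest probe of TNNT1 came mostly from array 1, and without that array it was 0.36 on the log2 scale instead of 1.02. For the brightest probe of TNNI3 it was then 0.79 instead of 1.18.

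**Figure D4:**
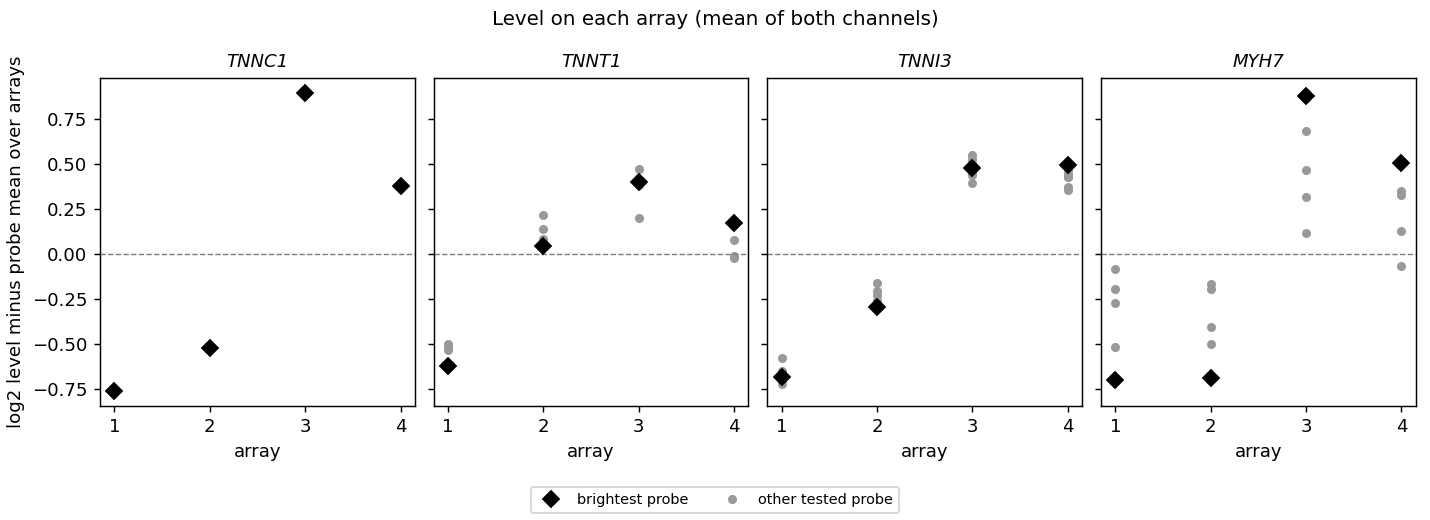
Log2 level on each array (mean of both channels) minus the probe's mean over the 4 arrays, for the tested probes of each gene, with diamonds for the brightest probe. Each of the 4 brightest probes lies lowest on array 1, and the range of TNNC1 spans 1.66 on the log2 scale.

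No label separates arrays 1 and 2 from arrays 3 and 4, and the arrays lay on 1 slide. The arrays also differed in overall brightness before scaling: the median log2 intensity of all tested probes was 8.09, 8.20, 8.50 and 8.37 on arrays 1 to 4, in the same order as the levels of TNNC1, TNNT1 and MYH7. The median Cy3 signal was 95, 105, 136 and 145 and the median Cy5 signal 94, 109, 108 and 91. The part of this in the levels was not tested; with arrays scaled by their medians instead, the 4 brightest probes were still higher on arrays 3 and 4. In bulk RNA, fewer cells of a type and less RNA per cell cannot be told apart. Marker genes of other cells also differed between arrays, and their part in the levels of the 4 genes was not tested. The 2 tested endothelial markers, PECAM1 and CDH5 (of 5 listed), were highest on array 1 and lower on arrays 3 and 4, with a median deviation of 0.90, 0.18, -0.42 and -0.66 from the mean over arrays 1 to 4. SOX2, the 1 tested folliculostellate marker of 5, deviated by -0.19, -0.37, 0.23 and 0.33. The 9 tested markers of hormone cells (of 10) had median deviations of -0.04, -0.22, 0.40 and -0.27, but they did not move together. Among the 9, 3 (FSHB, TSHB and GNRHR) were higher on both of arrays 3 and 4 than on both of arrays 1 and 2. Another 3 (GH1, PRL and POU1F1) had the reverse order. The hormone genes GH1, PRL, POMC, LHB, FSHB and TSHB were well above background in both channels of all 4 arrays. CGA, the alpha subunit shared by the gonadotropins and thyrotropin, was too, but it was not tested because its spot had an uneven local background on all 4 arrays.

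Markers of striated muscle itself were few on the array. Of 5 listed skeletal muscle markers 3 were tested (MYH1, ACTA1 and CKM), and the probes of MYH2 and the muscle regulator MYOD1 were not above the limit for testing. Their median deviations on arrays 1 to 4 were 0.02, 0.07, -0.11 and -0.17, so they did not share the order of the 4 genes. Their summed level ran from 30667 to 41269 in treated and from 27845 to 42133 in control cells. ACTA1, the skeletal muscle actin, made up 97.5% to 98.6% of that sum, so it says little of the other markers. MYH1 was called well above background on 3 arrays in treated and 4 in control cells. Of 5 listed heart muscle markers only the natriuretic peptide gene NPPA had a probe with that name. It was called well above background on 0 arrays and was not tested.

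The other tested genes of striated muscle had ratios near 0 as processed here. Some were dim, such as SMPX with levels of 6.91, 6.60, 6.74 and 6.85 on arrays 1 to 4. Ratios of dim probes are drawn towards 0 by the offset, and the ratios of these genes were not taken under other settings. Some intervals also reached the ratios of the 4 members, as that of TCAP did (-0.25 to 0.32). Of 40 listed genes of slow and cardiac muscle, 19 had a named probe and 13 were tested by their brightest probe. Of these 8 were above 0 and 5 below, with a median log2 ratio of 0.0028, and 0 had an adjusted or an unadjusted p under 0.05. The highest were MYOZ2, a protein of the Z-disc, at 0.07 and XIRP1 at 0.05. The lowest were ANKRD1, a stress-responsive ankyrin repeat protein, at -0.11 and NPPB, a natriuretic peptide, at -0.10. MYOZ2 had 10 tested probes, of which 5 were above 0. The troponin I gene of slow skeletal muscle, TNNI1, and the ventricular light chain gene MYL2 had probes that were not tested. Probes of MYL2, CSRP3, PLN, NPPA and SMYD1 were called well above background on 0 arrays in either channel. Those of TNNI1 were so called on 1 array at most in each channel.

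Of 28 listed genes of fast skeletal muscle, 18 had a named probe and 14 were tested, with 5 above 0, 9 below and a median of -0.01. The highest were ENO3, the muscle enolase, at 0.09 and CKM, the muscle creatine kinase, at 0.06. The lowest were MYL1, a fast myosin light chain, and MYOZ3, both at -0.07. The fast troponin genes TNNI2 and TNNT3 had -0.01 and -0.03. The fast troponin C gene TNNC2 was not tested, with its probes called well above background on 0 arrays. None of the 14 had an unadjusted p under 0.05. Here too some genes were dim: RYR1 was well above background on 1 array in treated and 3 in control cells.

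Of 24 listed regulators of muscle genes 8 were tested, with 4 above 0 and 4 below and a median of -0.02. The highest was HOPX, a homeodomain protein without DNA binding that is known from the heart, at 0.20 (0.04 to 0.36), with all 5 of its probes above 0. MYOCD had 0.05. The lowest were MYOG at -0.11 and MEF2C at -0.10. HOPX was the 1 gene of this list with an unadjusted p under 0.05. Of 16 listed genes of smooth muscle and pericytes 4 were tested, ACTA2 at 0.04, RGS5 at 0.01, CNN1 at 0.01 and MYLK at 0.0033, with a median of 0.01.

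**Figure D5:**
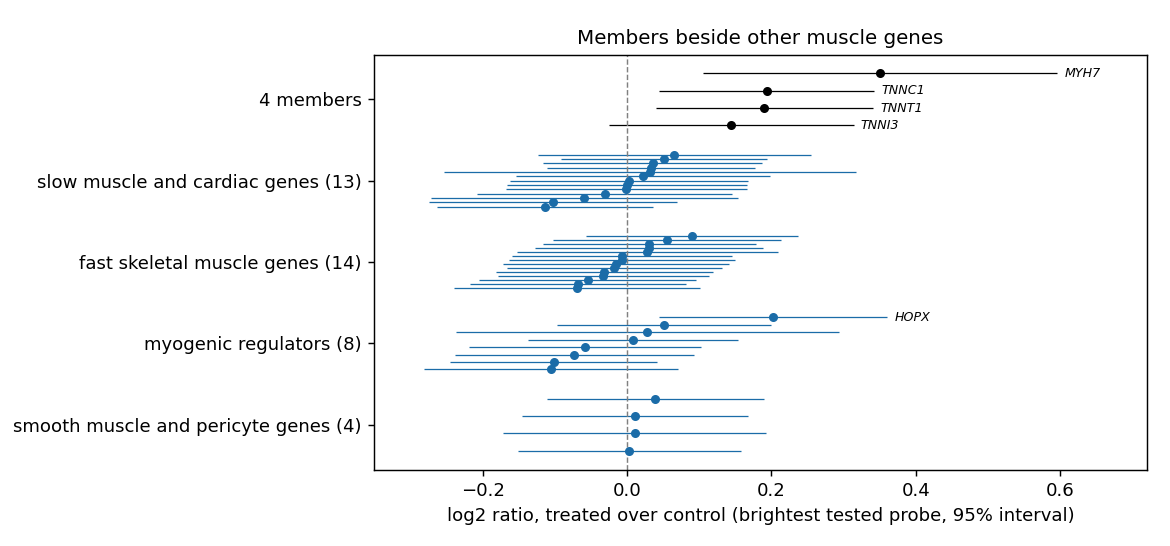
Log2 ratio of treated over control cells with its 95% interval for the brightest tested probe of TNNC1, TNNT1, TNNI3 and MYH7 and of the tested genes in 4 lists. The 4 genes, which were proposed with their ratios known, lie between 0.14 and 0.35; among the listed genes HOPX lies highest at 0.20.

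The order of arrays seen in the levels of the 4 genes was not general to muscle genes. It was found for 3 of 13 tested genes of slow and cardiac muscle, 3 of 14 of fast muscle, 2 of 8 regulators and 1 of 4 of smooth muscle. These counts are near the share of 22.4% among all tested probes measured on 4 arrays. The reverse order was found for 2, 4, 0 and 1 genes of these lists, against 28.6% of all such probes. The fast light chain gene MYL1 had the reverse, with levels of 9.15, 9.35, 7.24 and 6.93 on arrays 1 to 4, and MYOZ2 had 8.24, 8.97, 7.79 and 7.36. UNC45B, a chaperone of myosin, had 7.46, 7.52, 8.14 and 8.49 and so followed the order of the 4 genes. TPM1, a tropomyosin, did so too with 13.71, 13.54, 14.67 and 14.78.

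The genes whose single-array ratios were most like those of each member were found by the smallest Euclidean distance over the 4 arrays among 1823 named genes. For MYH7 they were SPARCL1 (distance 0.26), with -0.06, 1.09, 0.05 and 0.56 on arrays 1 to 4, SELENOP (0.35) and PIK3IP1 (0.45). All 3 were highest on array 2, which follows from their choice by likeness to MYH7. For TNNC1 they were CYB5A (0.16), GNRH1 (0.17) and ARPC1B (0.19). For TNNT1 they were DNASE1 (0.15), FAM213B (0.16) and PNMT (0.17), and for TNNI3 they were CPA1 (0.11), RAD52 (0.14) and SERPINA7 (0.15). Distances between small ratios are small by construction, so these names describe likeness on 4 arrays only.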

How the data were processed

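RNA was hybridised to Agilent arrays of design 026440 and quantified with Feature Extraction 10.7.3.1, per the file headers. The authors deposited, for each spot, linear intensity values, flags and a log10 ratio of Cy5 over Cy3, per the file headers. The authors' series matrix holds log2 ratios: 99.99% of probes lay within 0.01 of the log2 ratio of the scanner's processed signals on each array, turned to treated over control as the channel labels have it, with column medians of -0.04, 0.08, 0.04 and -0.05.

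Median signals were corrected with normexp (offset 50). Spots flagged as outliers (29 to 45 of 43803 per array) or for uneven background (939 to 1350) were left out. Ratios were normalized by loess with control spots at weight 0. Fits used limma 3.58.1 in R 4.3.3 (lmFit and eBayes, two-sided, Benjamini-Hochberg, threshold 0.05). They were tried on simulated data with planted changes larger than the fitted ratios of the members, so recovery of changes of the members' size was not tested. No spot was saturated. In a single channel 25089 to 29734 probes were called well above background, and 4 arrays limit the precision. Levels are after Aquantile scaling. RefSeq accessions of Sscrofa11.1 named 5578 of 43603 probes. A gene is represented by its brightest tested probe, and the 2 highest and 2 lowest ratios of each list are named. TNNI2, TNNT3, UNC45B and TPM1, and the repeats of MYL1 and MYOZ2 by level, were chosen after their values were seen. The members and lists were chosen with earlier results of these data known. Probe sequences were not used here, so whether a probe also reads related transcripts, such as MYH6 beside MYH7 or other actins beside ACTA1, was not tested. Alternatives covered background, normalization, filter, dye, probe choice, channel labels and each array left out.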

Additional observations from a re-analysis of the deposited data

Results flagged for a closer look

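In 2 of 73 sets of 4 array values for the member probes and the listed muscle genes, 1 array stood apart from the rest. By chance 1 set in 20 would do so, or 3.65 of these. The TNNI3 probe A_72_P738792 had a log2 ratio of 0.45 on array 3, with the others between 0.15 and 0.18. HOPX had 0.385 on array 4, with the others between 0.13 and 0.16.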

How the results depend on the processing

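With the channel labels followed and all 4 arrays, the count of probes with an adjusted p under 0.05 was 0 under each of the 9 other settings that give a count, by limma. The ratios of the brightest probes of all 4 genes were above 0 in each of these settings and with the mean of probes. TNNC1 moved beyond its spread between arrays to 0.30 with offset 0, 0.28 without background subtraction, and 0.58 with the scanner log ratio and in the series matrix. TNNT1 was 0.26 with median centring. With treated RNA as Cy5 on every array, TNNC1 had 0.079, TNNT1 -0.035 and MYH7 -0.32, 2331 probes had an adjusted p under 0.05 and 7247 an unadjusted one, and 1 member probe was among the 2331, the dim MYH7 probe A_72_P614843. The unadjusted count of 717 became 188 with median centring, 202 without the dye term and 1352 without a filter, and the causes were not tested. With 1 array left out the adjusted count ran from 0 to 832 (724 without array 2, 832 without array 4) and the unadjusted count from 238 to 3604. The ratios then ran from 0.16 to 0.23 for TNNC1, 0.15 to 0.23 for TNNT1, 0.07 (without array 3) to 0.22 (without array 1) for TNNI3 and 0.18 to 0.53 for MYH7. Without array 4, 2 MYH7 probes were among the 832 called of 25157 tested, and without array 2 the MYH7 probe A_72_P325943 was below 0. With uneven-background spots kept, 16 of 18 tested member probes were above 0, and the exceptions were probes of MYH7. TNNC1 had no value under the strict filter, and the mean of probes gives no count of probes. The scalings of level were chosen after seeing the data: the ranges of the 4 brightest probes were 1.09 to 1.66 with median scaling and 1.03 to 2.36 with offset 0, and each gene stayed lowest on array 1. The 2 RNAs of an array are paired by sharing it, and the fits used that pairing through the ratio within each array. A pairing by gilt was not possible because no label ties an array to a gilt. Signal over background limits TNNC1 and the dimmer MYH7 probes.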
